A study of Homo sapiens with 8 samples.

Results

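The ABC transporter family was examined in spheroids of a cisplatin-resistant ovarian cancer line and of its parent. Members were the genes whose symbol consists of ABC, a subfamily letter from A to G and a number, and that were named alone by a probeset of the arrays. This rule found 43 genes among the 18417 genes measured by a probeset with 1 gene. For a gene with several probesets, the brightest on average stood for it. After probesets that were dim in both lines were left out, 33 of the 43 were tested, among 15931 genes tested in all.

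Total RNA of spheroids was hybridised to 8 Affymetrix Human Gene 1.0 ST arrays. The 4 Cisplatin-resistant arrays hold a line that the labels name OVCAR-8C, obtained from the ovarian adenocarcinoma line OVCAR-8 by stepwise exposure to cisplatin at up to 5 μM and still resistant once the drug was withdrawn. The 4 Cisplatin-sensitive arrays hold the parental OVCAR-8, labelled wild-type. Both lines were kept in the same medium with serum and antibiotics, and formed spheroids of 300 μm in molds of 2% agarose. Resistance is thus represented by a single derived line, and the p-values measure the spread between arrays, which may be technical, since the labels do not say at which step the biological replicates were separated. Spheroids are bulk samples, so fewer cells of a type and less RNA per cell cannot be told apart.

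ABC proteins bind and hydrolyse ATP with a conserved nucleotide-binding domain, and most use that energy to move a substrate across a membrane. Subfamily A carries lipids and sterols, B holds the drug exporter P-glycoprotein and transporters of mitochondria, lysosomes and bile, C holds the multidrug resistance proteins and the sulfonylurea receptors, D serves peroxisomes and lysosomal cobalamin, and G holds sterol exporters and the drug exporter ABCG2. Subfamilies E and F have no membrane domains and act on ribosomes and translation. Several members of B, C and G are known for removing anticancer drugs from tumour cells.

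Values are log2 of the RMA signal, and a difference is the mean of the Cisplatin-resistant arrays minus the mean of the Cisplatin-sensitive arrays, given with its standard error (SE, n = 4 arrays per line). A gene is called where the limma p adjusted over all probesets kept was under 0.05 and the difference was at least 2-fold, and is said to be higher or lower at any size where only the adjusted p was met. Of the 33 ABC genes tested, 3 were called higher, which is 9.09%, beside 8.37% of all genes tested. Only ABCB1 was called lower, which is 3.03%, beside 8.37% of all genes. At any size, 13 ABC genes were higher (39.4%, beside 27.6% of all genes) and 9 were lower (27.3%, beside 30.0%). The arrays of both lines did not overlap for 19 of the 33 (57.6%, beside 56.8% of all genes). The 9 lower and the 19 both include ABCD2, which was dim in the resistant line and passed the filter only through the sensitive line. The median difference over the ABC genes was 0.06, and it was -0.01 over all genes. The median size of a difference was 0.40, and it was 0.34 over all genes. The share called higher was near that of all genes, and with 33 genes no share is read as particular to the family, so the values of single members carry the description that follows.

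**Figure D1:**
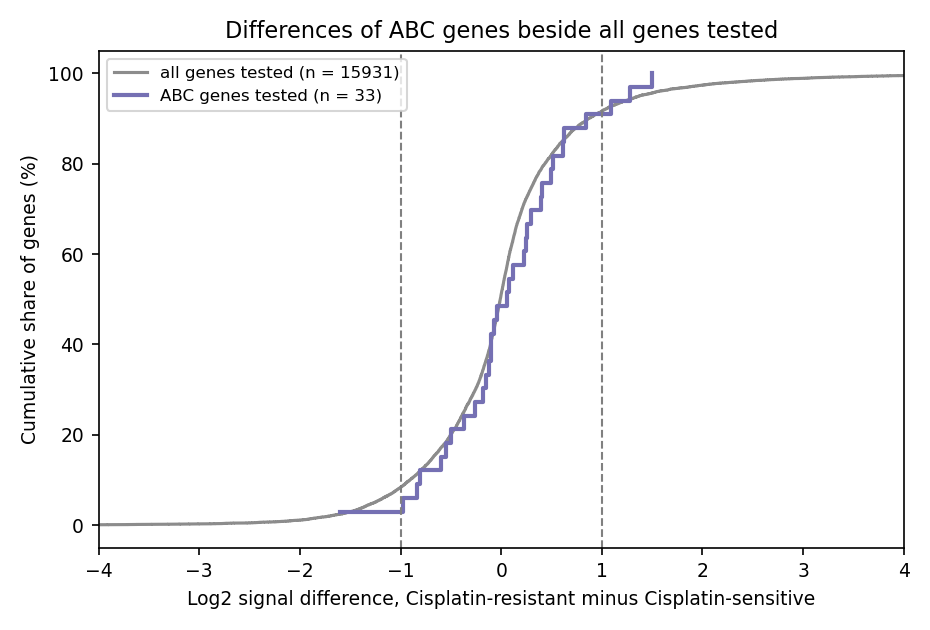
Cumulative share of genes in percent (y axis) by log2 signal difference, Cisplatin-resistant minus Cisplatin-sensitive (x axis), for the 33 ABC genes tested (purple steps) and all 15931 genes tested (grey line), with dashed lines at a 2-fold difference. The ABC curve ends at -1.60 and 1.501, while all genes ran from -6.34 to 8.39, beyond both ends of the x axis drawn.

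The drug exporter ABCB1 (MDR1, P-glycoprotein), which expels many hydrophobic drugs, fell in the resistant line. Its log2 signal was 6.06, 5.84, 6.14 and 5.79 on Cisplatin-resistant arrays 1 to 4 and 7.56, 7.59, 7.63 and 7.48 on the Cisplatin-sensitive arrays. The lines did not overlap, and resistant arrays 2 and 4 were the lowest. The difference was -1.60 (SE 0.09, adjusted p = 4.26e-07), a 3.04-fold lower signal. This was the largest difference in size among the 33 members tested.

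ABCC1 (MRP1), an exporter of glutathione conjugates and other organic anions, went the opposite way. Its log2 signal was 9.48, 9.69, 9.48 and 9.66 on the Cisplatin-resistant arrays and 8.13, 7.89, 8.11 and 8.18 on the Cisplatin-sensitive arrays. Every resistant array was above every sensitive array. The signal rose by 1.501 on the log2 scale (SE 0.09, adjusted p = 5.18e-07), which is 2.83-fold. ABCA3, which loads phospholipids into the lamellar bodies of lung epithelium and lies in intracellular membranes, was also called higher. It gave 8.09, 8.59, 8.17 and 8.44 on the Cisplatin-resistant arrays and 7.07, 6.89, 7.18 and 7.05 on the Cisplatin-sensitive arrays, with no overlap. The difference was 1.28 (SE 0.12, adjusted p = 1.11e-05), or 2.43-fold.

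The fourth called member was ABCB8, a transporter of the inner mitochondrial membrane. The probeset that represents it gave 8.44, 8.53, 8.42 and 8.41 on the Cisplatin-resistant arrays and 7.42, 7.20, 7.45 and 7.37 on the Cisplatin-sensitive arrays, a difference of 1.09 (SE 0.08, adjusted p = 1.54e-06). ABCB8 has 3 probesets, and they disagreed. The second gave 7.38, 7.37, 7.36 and 7.30 against 7.36, 6.92, 7.07 and 7.06, a difference of 0.25 (SE 0.10, adjusted p = 0.0528). The third gave 7.95, 7.78, 7.74 and 7.78 against 7.68, 7.89, 7.65 and 7.51, a difference of 0.13 (SE 0.09, adjusted p = 0.282). The lines overlapped on both of these probesets. With the mean of the 3 probesets the difference of ABCB8 was 0.49 and the gene was not called. Which transcripts each probeset measures was not tested. Under treat, limma's test for a difference of more than 2-fold, ABCB8 (adjusted p = 1) and ABCA3 (adjusted p = 0.238) were not called.

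**Figure D2:**
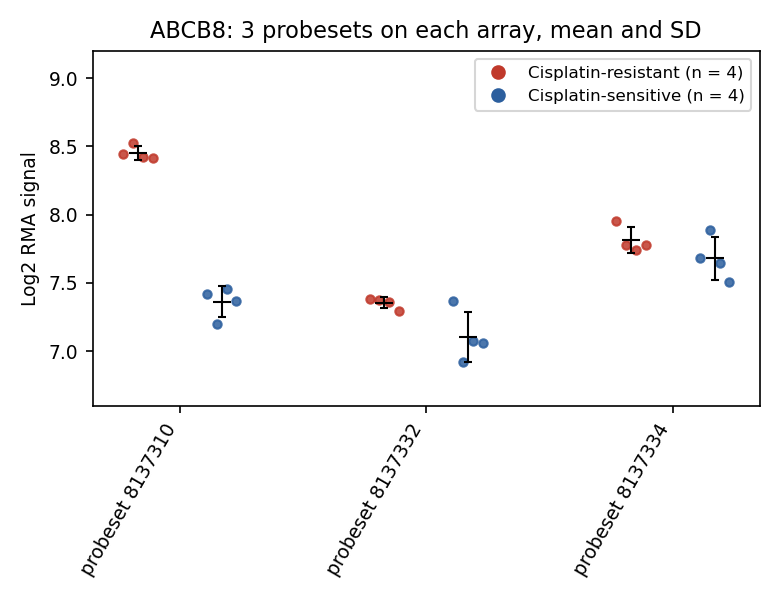
Log2 RMA signal (y axis) of the 3 ABCB8 probesets (x axis) on the 4 Cisplatin-resistant (red) and 4 Cisplatin-sensitive (blue) arrays, with mean and SD as black bars. The lines are apart by 1.09 on the first probeset and overlap on the others, where the differences were 0.25 and 0.13.

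The resistant arrays fell into pairs across the whole table, a split that ABCB1, ABCC1 and ABCA3 show and ABCB8 does not. Over probesets, the deviations of resistant arrays 1 and 3 from the mean of their line correlated at r = 0.427 and those of arrays 2 and 4 at r = 0.484. Between the pairs, r ran from -0.763 to -0.684. The cause of the split was not tested. If arrays of a pair are not independent, an SE and adjusted p over 4 arrays can be too small. With resistant arrays 1 and 3 alone the difference was -1.46 for ABCB1, 1.40 for ABCC1, 1.09 for ABCA3 and 1.07 for ABCB8. With arrays 2 and 4 alone it was -1.75, 1.60, 1.47 and 1.11 in the same order. All 4 were called with either pair.

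Promoters of called members are shown because their sequences differ in base composition and motifs. Each is the stretch of 250 bases before the annotated start in RefSeq (GRCh38.p14), on the strand of the gene and 5′ to 3′. Capitals mark matches on either strand to the GC box GGGCGG, the CCAAT box CCAAT, the E box CACGTG, the TATA box TATAAA, the AP-1 site TGANTCA, the antioxidant response element core TGACNNNGC, the CRE core TGACG, or the DR4 element of liver X receptors (AGGTCA repeated after 4 bases). ABCC1 is named only. The ABCA3 window is chr16:2340729-2340978 on the minus strand, the ABCB1 window chr7:87713296-87713545 on the minus strand, and the ABCB8 window chr7:151028200-151028449 on the plus strand.
ABCA3: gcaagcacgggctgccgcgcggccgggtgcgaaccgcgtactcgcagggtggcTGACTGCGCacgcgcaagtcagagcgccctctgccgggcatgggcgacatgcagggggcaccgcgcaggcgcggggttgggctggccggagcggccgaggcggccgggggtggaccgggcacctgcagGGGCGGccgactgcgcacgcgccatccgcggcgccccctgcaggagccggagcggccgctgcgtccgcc
ABCB1: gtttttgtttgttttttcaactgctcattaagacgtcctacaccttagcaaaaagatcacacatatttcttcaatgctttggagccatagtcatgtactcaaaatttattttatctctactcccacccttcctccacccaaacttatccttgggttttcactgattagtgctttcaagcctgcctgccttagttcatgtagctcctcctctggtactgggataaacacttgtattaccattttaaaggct
ABCB8: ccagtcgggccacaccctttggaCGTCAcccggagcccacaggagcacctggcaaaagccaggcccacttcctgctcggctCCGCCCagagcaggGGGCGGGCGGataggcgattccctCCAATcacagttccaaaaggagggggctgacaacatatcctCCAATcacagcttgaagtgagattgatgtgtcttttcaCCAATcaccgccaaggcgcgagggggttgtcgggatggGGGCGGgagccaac

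The ABCB1 window, of the member called lower, had a GC content of 39.2% and held no match to any of these motifs. It stands at the annotated start and does not describe any other promoter of the gene. Which start these cells use was not measured. The ABCA3 window had a GC content of 79.2%, 1 GC box and 1 antioxidant response element core. The ABCB8 window had a GC content of 61.6%, with 4 GC boxes of which a pair overlaps, 3 CCAAT boxes and 1 CRE core. A promoter was given for 34 of the 43 members, with a median GC content of 61.6%, beside 58.0% over 27305 promoters. The GC box was in 52.9% of the member promoters and 42.3% of all, the CCAAT box in 17.6% and 33%, and the CRE core in 41.2% and 21.7%. The E box was in 11.8% and 6.49%, the TATA box in 14.7% and 11.1%, the antioxidant response element core in 17.6% and 11%, and the AP-1 site in 2.94% and 6.6%. The DR4 element was in 0 of 34 member promoters and in 4 of all. A match is a run of letters and not a measured binding site.

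Besides ABCB1 and ABCC1, 7 exporters of drugs and organic anions were tested and none was called, although 3 more were higher and 2 more lower at any size. ABCC2 (MRP2), the apical exporter of glutathione and bilirubin conjugates, gave 6.997, 6.991, 6.996 and 7.040 on the Cisplatin-resistant arrays and 6.43, 6.46, 6.21 and 6.48 on the Cisplatin-sensitive arrays. The lines did not overlap, and the difference was 0.61 (SE 0.08, adjusted p = 8.97e-05). ABCC3 (MRP3), a basolateral exporter of glucuronides, gave 5.99, 6.03, 5.67 and 6.08 against 5.42, 5.69, 5.64 and 5.39. Its lines overlapped through resistant array 3, and the difference was 0.41 (SE 0.11, adjusted p = 0.0116).

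ABCC4 (MRP4), which exports cyclic nucleotides and prostaglandins, gave 8.26, 8.50, 8.38 and 8.50 on the Cisplatin-resistant arrays and 8.73, 8.67, 8.89 and 8.81 on the Cisplatin-sensitive arrays. It was lower on all resistant arrays, with a difference of -0.37 (SE 0.08, adjusted p = 0.0041). ABCC5 (MRP5), another exporter of cyclic nucleotides, gave 7.77, 7.88, 7.89 and 7.92 against 7.50, 7.41, 7.70 and 7.80. Sensitive array 4 lay within the resistant range, and the difference of 0.26 (SE 0.10, adjusted p = 0.0456) passed only narrowly.

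ABCG2 (breast cancer resistance protein), an exporter of many drugs and of urate, gave 5.63, 5.65, 5.57 and 5.69 on the Cisplatin-resistant arrays and 5.88, 5.98, 5.90 and 5.81 on the Cisplatin-sensitive arrays. The lines did not overlap, and the difference was -0.26 (SE 0.07, adjusted p = 0.00977). ABCC10, at -0.10 (adjusted p = 0.425), and ABCC11, at -0.12 (adjusted p = 0.206), did not pass at any size. Over the 9 exporters the median difference was -0.10. At any size 4 of the 9 were higher, beside 27.6% of all genes, and 3 were lower, beside 30.0%.

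**Figure D3:**
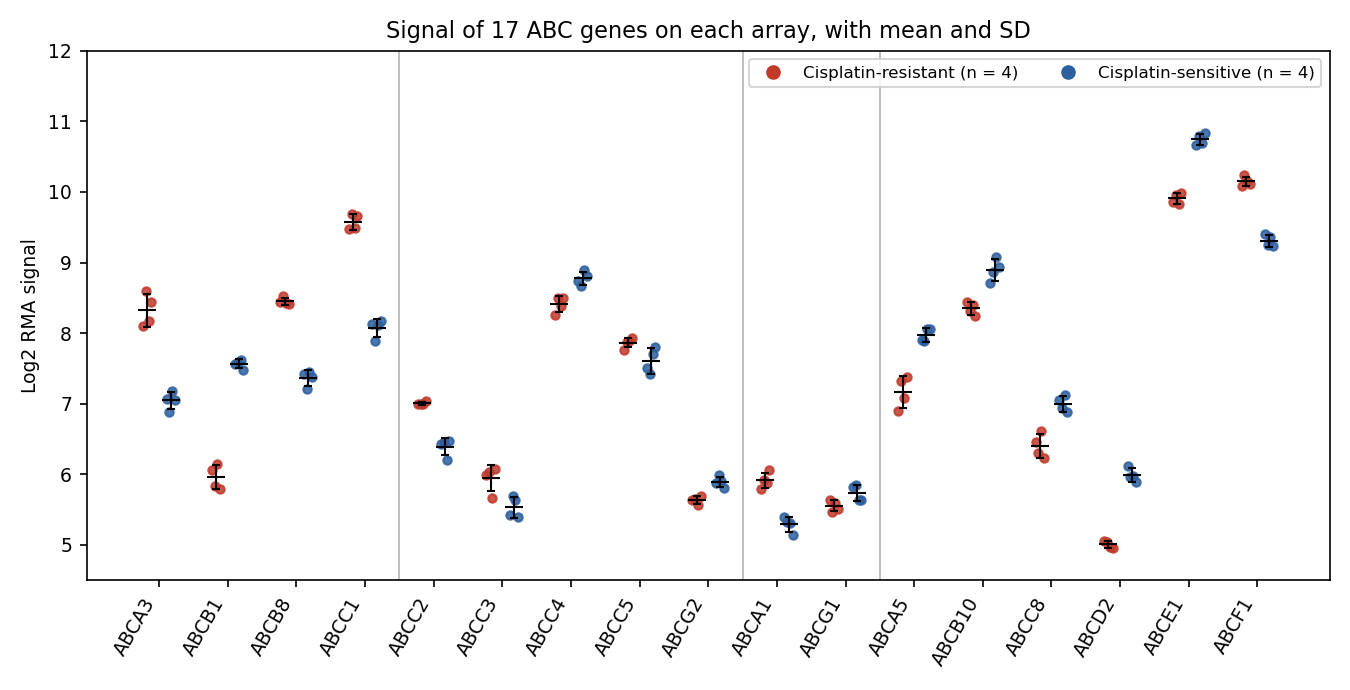
Log2 RMA signal (y axis) on each of the 4 Cisplatin-resistant (red) and 4 Cisplatin-sensitive (blue) arrays for 17 ABC genes (x axis), with mean and SD as black bars. From left to right stand the called members, the other drug exporters, the sterol exporters ABCA1 and ABCG1, and the other members with large differences. The called members are apart by 1.09 to 1.60, and ABCC3 and ABCC5 overlap between lines.

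Among transporters of sterols and phospholipids, ABCA3 was called, and ABCA1, which moves cholesterol and phospholipid out of cells to apolipoprotein A-I, was higher at any size. ABCA1 gave 5.79, 5.92, 5.88 and 6.05 on the Cisplatin-resistant arrays and 5.39, 5.32, 5.31 and 5.15 on the Cisplatin-sensitive arrays, without overlap. The difference was 0.62 (SE 0.08, adjusted p = 0.00014). ABCG1, which passes cholesterol to lipoproteins and is controlled by the same liver X receptors as ABCA1, gave 5.64, 5.47, 5.60 and 5.51 against 5.81, 5.85, 5.64 and 5.64. The lines were apart by a narrow margin, and the difference of -0.18 (SE 0.08, adjusted p = 0.0826) did not pass.

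ABCA5, found in late endosomes and lysosomes, was lower at any size. It gave 6.89, 7.33, 7.08 and 7.38 on the Cisplatin-resistant arrays and 7.90, 7.89, 8.06 and 8.06 on the Cisplatin-sensitive arrays. No array overlapped, and the difference was -0.81 (SE 0.11, adjusted p = 0.000194). ABCA2, of endosomes and lysosomes, was higher by 0.52 (SE 0.12, adjusted p = 0.00395). ABCA7, at -0.16, ABCB4, the phosphatidylcholine exporter of bile, at 0.07, ABCG4 at -0.11 and ABCG8 at 0.06 did not pass, with adjusted p from 0.123 to 0.779. ABCG5, the partner of ABCG8 in sterol excretion, was dim in both lines.

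ABCA5 lies on chromosome 17 in a cluster with ABCA6, ABCA8, ABCA9 and ABCA10. Only ABCA5 was tested there, and the other 4 were dim in both lines. The other A members are ABCA4, a retinal transporter, at 0.22 (adjusted p = 0.0876), which was dim in the Cisplatin-sensitive line, ABCA13 at 0.12 (adjusted p = 0.212), and ABCA12, a lipid transporter of skin, which was dim in both.

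The mitochondrial transporters differed among themselves. ABCB10, of the inner membrane and linked to heme synthesis, gave 8.45, 8.32, 8.39 and 8.24 on the Cisplatin-resistant arrays and 8.71, 8.86, 9.08 and 8.93 on the Cisplatin-sensitive arrays. It was lower without overlap, at -0.55 (SE 0.09, adjusted p = 0.000648), while the main probeset of ABCB8 was higher. ABCB6, a porphyrin transporter, was higher by 0.25 (SE 0.08, adjusted p = 0.0223).

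The transporters of peroxisomes and of lysosomal cobalamin held no member higher at any size. ABCD2, which imports very long chain fatty acyl-CoA into peroxisomes, gave 5.06, 5.05, 4.97 and 4.96 on the Cisplatin-resistant arrays and 6.12, 5.96, 5.97 and 5.88 on the Cisplatin-sensitive arrays. The lines did not overlap, but the mean of 5.01 in the resistant line was under the dim limit of 5.11 there, so the probeset passed the filter only through the sensitive line. Set against that limit, the signal was at least 1.84-fold lower. The fitted difference was -0.97 (SE 0.07, adjusted p = 2.49e-06) and was not called, while without Cisplatin-sensitive array 4 it was -1.01 and called lower. ABCD3, which imports branched-chain and dicarboxylic acyl-CoA, was at -0.04 (SE 0.08, adjusted p = 0.71). ABCD4, which acts in the release of cobalamin from lysosomes, was lower by 0.50 on the log2 scale (-0.50, SE 0.08, adjusted p = 0.000361). ABCB9, a lysosomal peptide transporter, was higher by 0.50 (SE 0.09, adjusted p = 0.000983).

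The members without membrane domains moved apart. ABCE1, which splits ribosomes after termination, gave 9.86, 9.96, 9.82 and 9.99 on the Cisplatin-resistant arrays and 10.66, 10.80, 10.70 and 10.83 on the Cisplatin-sensitive arrays. It was lower on every resistant array, at -0.84 (SE 0.07, adjusted p = 6.97e-06). ABCF1, which acts with initiation factor eIF2, gave 10.09, 10.24, 10.16 and 10.11 against 9.40, 9.24, 9.36 and 9.23. It was higher on every resistant array, at 0.84 (SE 0.07, adjusted p = 6.59e-06), and its 3 probesets held identical values and count as 1 measurement. ABCF3 was higher by 0.40 (SE 0.11, adjusted p = 0.0103), with an overlap through sensitive array 4, and ABCF2 was at -0.07 (adjusted p = 0.439).

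The sulfonylurea receptors, regulatory subunits of ATP-sensitive potassium channels, had opposite signs. ABCC8 (SUR1) gave 6.46, 6.30, 6.61 and 6.23 on the Cisplatin-resistant arrays and 7.05, 6.94, 7.12 and 6.88 on the Cisplatin-sensitive arrays, lower without overlap at -0.60 (SE 0.10, adjusted p = 0.00061). ABCC9 (SUR2) was higher by 0.30 (SE 0.09, adjusted p = 0.0194) with overlapping lines.

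By subfamily, the median difference was 0.22 over 7 A genes tested, 0.16 over 6 B genes, 0.26 over 9 C genes and -0.50 over 3 D genes. It was 0.40 over 3 F genes and -0.14 over 4 G genes, and E holds ABCE1 alone, at -0.84. The counts at any size were 3 higher and 1 lower for A, 3 and 2 for B, 5 and 2 for C, and 0 and 2 for D. They were 0 and 1 for E, 2 and 0 for F, and 0 and 1 for G. Among the lower D genes, ABCD2 passed the filter only through the sensitive line. Over all genes tested, 27.6% were higher and 30.0% lower at any size. The 10 members dim in both lines were ABCA6, ABCA8, ABCA9, ABCA10, ABCA12, ABCB5, ABCB11 (the bile salt export pump), ABCC12, the pseudogene ABCC13, and ABCG5. Their mean signals in both lines were under the limits of 5.11 and 5.16, and no difference is drawn from them.

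**Figure D4:**
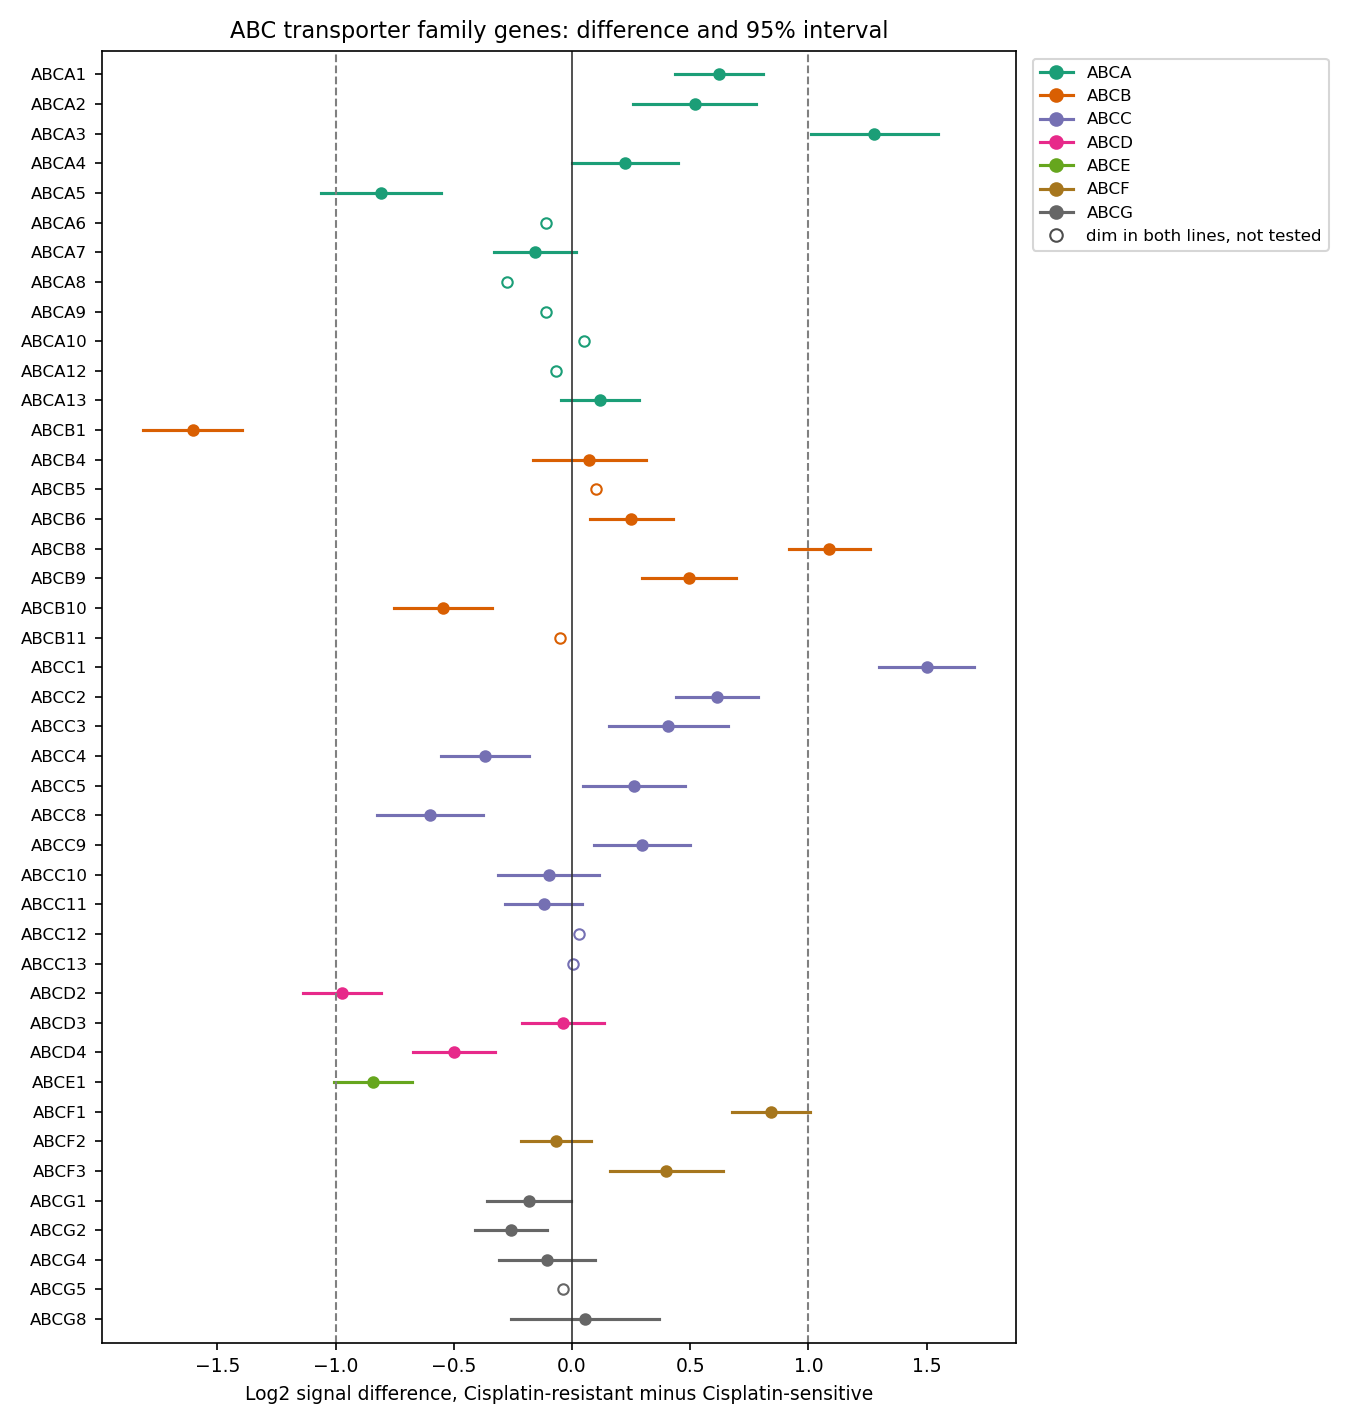
Log2 signal difference, Cisplatin-resistant minus Cisplatin-sensitive (x axis), of the 43 ABC genes (y axis), coloured by subfamily, with 95% intervals from limma (4 arrays per line) and dashed lines at 2-fold. Open circles are the 10 genes that were dim in both lines and not tested. ABCC1 at 1.501, ABCA3 at 1.28 and ABCB8 at 1.09 lie past 2-fold on the right and ABCB1 at -1.60 on the left.

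Of the 16 measured neighbours of called members on the chromosome, taken as the nearest pair on each side in RefSeq order, 14 were not called. This is near the share over all genes tested, of which 13263 of 15931 were not called. RUNDC3B, whose annotated span overlaps that of ABCB1, was called lower with it at -1.29 (SE 0.15, adjusted p = 5.26e-05). SLC25A40, a mitochondrial carrier next to it on chromosome 7, was called higher at 1.05 (SE 0.15, adjusted p = 0.00017). On the other side of ABCB1 stand ABCB4 and CROT, a peroxisomal carnitine acyltransferase, which was higher by 0.93 (SE 0.15, adjusted p = 0.000559). Whether the probesets of ABCB1 and RUNDC3B share transcripts was not tested.

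TAP1 and TAP2, which form the peptide transporter that feeds MHC class I molecules, and CFTR, an epithelial chloride channel, are ABC proteins with other symbols. TAP1 was called higher. Its signal was 9.21, 9.32, 9.15 and 9.23 on the Cisplatin-resistant arrays and 7.77, 7.42, 7.55 and 7.60 on the Cisplatin-sensitive arrays, a difference of 1.64 (SE 0.09, adjusted p = 2.29e-07) without overlap. TAP2 was higher by 0.40 (SE 0.08, adjusted p = 0.00168), and CFTR was dim in both lines. Of the 6 genes tested that load peptides with TAP, 3 were called higher and 1 lower, beside 8.37% of all genes in each direction. Tapasin (TAPBP), which bridges TAP and MHC class I, rose by 3.23 (SE 0.12), TAPBPL by 1.55 (SE 0.14) and the peptide-trimming enzyme ERAP1 by 1.32 (SE 0.08). Beta-2-microglobulin (B2M), the light chain of MHC class I, gave 6.75, 7.26, 7.04 and 7.23 against 8.73, 8.73, 8.53 and 8.87. It was thus lower on every resistant array, at -1.64 (SE 0.12, adjusted p = 2.44e-06).

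Of 15 partners and regulators of sterol efflux tested, 5 were called higher and none lower, beside 8.37% of all genes in each direction. At any size 12 were higher, beside 27.6% of all genes, and the median difference was 0.77. The list was chosen with earlier results of these data known. The phospholipid transfer protein PLTP rose by 2.22 (SE 0.08), the cholesteryl ester hydrolase NCEH1 by 1.81 (SE 0.08), the lysosomal cholesterol transporter NPC1 by 1.66 (SE 0.08) and apolipoprotein E (APOE) by 1.11 (SE 0.12). NPC2, which hands cholesterol to NPC1, was the other called gene, at 1.04. The liver X receptor NR1H3, which controls ABCA1 and ABCG1, was at -0.03 (adjusted p = 0.868). The receptors RXRA, at 0.94 (SE 0.07, adjusted p = 3.64e-06), and RXRB, at 0.61 (SE 0.10, adjusted p = 0.000392), of the same list were higher at any size and not called. The part of these receptors in ABCA1 and ABCG1 was not tested.

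Sensors and regulators of drug exporters held 2 calls among 17 tested, both higher, beside 8.37% of all genes called in each direction. The transcription factor ETS1 gave 10.97, 10.94, 11.05 and 10.77 on the Cisplatin-resistant arrays and 6.11, 6.08, 5.95 and 6.46 on the Cisplatin-sensitive arrays, a rise of 4.78 (SE 0.11, adjusted p = 1.25e-09). The hypoxia factor EPAS1 rose by 1.65 (SE 0.09, adjusted p = 2.16e-07). At any size, 7 of the 17 were higher (beside 27.6% of all genes) and 4 lower (beside 30.0%), and the median was 0.06. Among those higher at any size but not called were KEAP1 at 0.998 (SE 0.09), PPARD at 0.99 (SE 0.07), HIF1A at 0.96 (SE 0.11) and NFE2L2 at 0.70 (SE 0.09). NFYA, a CCAAT-binding factor, was lower at -0.72 (SE 0.07), and YBX1, a Y-box protein known as a regulator of ABCB1, at -0.37 (SE 0.06). NFYB, at -0.075 (adjusted p = 0.465), and NFYC, at -0.16 (adjusted p = 0.271), did not pass at any size. The part of these genes in the ABC differences was not tested. Of the 4 scaffold genes tested, which anchor apical exporters to actin, moesin (MSN) was called higher at 1.47 (SE 0.09). All 4 were higher at any size, beside 27.6% of all genes.

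In the pathways that ABC proteins of organelles and ribosomes serve, genes differed in both directions. Over all genes tested, 8.37% were called in each direction, and 27.6% were higher and 30.0% lower at any size. No count given here is read as particular to a pathway. In heme and iron-sulfur cluster synthesis, 1 of 28 genes was called, the mitochondrial iron importer SLC25A37 at 1.45 (SE 0.07), with 10 higher and 8 lower at any size. In the peroxisome list, 1 of 19 was called, PEX3, which inserts peroxisomal membrane proteins, at -1.39 (SE 0.08), with 7 higher and 5 lower at any size. Among 8 genes of cobalamin handling, the carrier TCN2 was called higher at 1.35 (SE 0.12) and the processing protein MMACHC lower at -1.05 (SE 0.12). In this list 3 were higher and 5 lower at any size.

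A list of 18 genes tested covered ribosome recycling and termination, the process of ABCE1, together with genes of other steps of translation. The latter include ASCC3, GCN1, EIF2AK4 and the eIF2 subunits EIF2S1, EIF2S2 and EIF2S3. The list was chosen with earlier results of these data known, and its counts are not read as a shift of the process of ABCE1. None of the 18 was called higher and 4 were called lower (beside 8.37% of all genes in each direction). These were MCTS1 at -1.60 (SE 0.09), EIF2D at -1.46 (SE 0.07), HBS1L at -1.37 (SE 0.08) and ASCC3 at -1.36 (SE 0.09). At any size 9 were lower (beside 30.0% of all genes) and 2 higher (beside 27.6%), and the median was -0.27. Of the channel pores that pair with the sulfonylurea receptors, KCNJ8 (Kir6.1) was called lower at -1.66 (SE 0.13) and KCNJ11 (Kir6.2) was lower at any size at -0.30 (SE 0.11). ABCC9, the usual partner of KCNJ8, had the opposite sign.

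**Figure D5:**
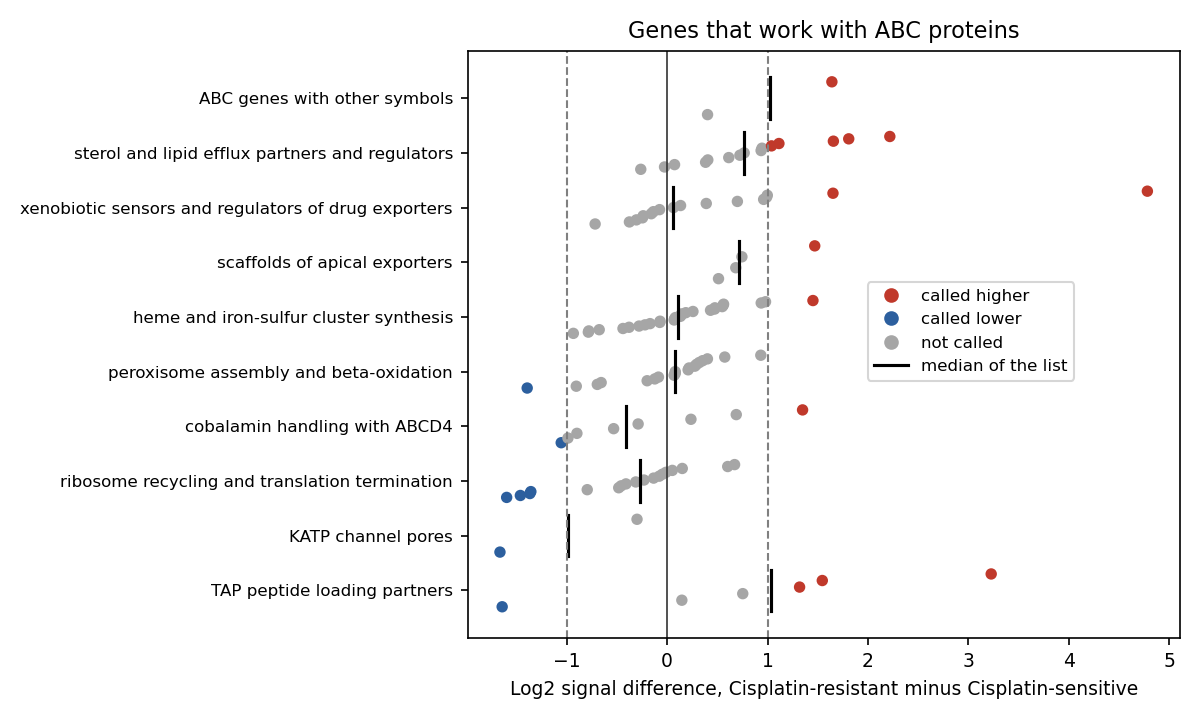
Log2 signal difference, Cisplatin-resistant minus Cisplatin-sensitive (x axis), of the genes tested in 10 lists of partners and regulators of ABC proteins (y axis), with red for called higher, blue for called lower, grey for not called, black bars for the median of a list and dashed lines at 2-fold. ETS1 at 4.78 and TAPBP at 3.23 lie farthest to the right, and the ribosome list has its 4 calls on the left.

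Markers of the labelled tissue and of other cell types moved between the lines as well. Of 7 markers of Mullerian ovarian epithelium, 5 were called higher in the resistant line, beside 8.37% of all genes. They were PAX8 at 3.77, KRT7 at 4.45, KRT8 at 2.97, EPCAM at 2.01 and KRT18 at 1.90. MUC16 was at 0.07 and WT1 at -0.86, lower at any size, and all 7 had means above the dim limit in both lines. The summed linear signal of these markers was 11350 to 12300 on the Cisplatin-resistant arrays and 1751 to 2027 on the Cisplatin-sensitive arrays. Of the 5 fibroblast markers, COL1A1 was called higher at 2.04. PDGFRB was higher at any size at 0.60, and COL1A2 was at -0.04 (adjusted p = 0.712). LUM had a fitted difference of -1.15 but was dim in the resistant line, so that its signal there was at least 1.09-fold lower. DCN was dim in both lines. The summed signals of the 5 fibroblast markers were 879 to 978 against 349 to 406, a rise that comes mostly from COL1A1. Of the 4 leukocyte markers measured, CD68, a lysosomal protein, was called higher at 2.52. CD14, at 0.23 (adjusted p = 0.0737), did not pass, and PTPRC and CD3E were dim in both lines. The summed signals of 2339 to 2525 against 471 to 561 come mostly from CD68. None of the 3 endothelial markers passed at any size, and their summed signal was 135 to 159 against 127 to 135. The part of these shifts in the ABC differences was not tested.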

How the data were processed

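The authors prepared RNA from spheroids with Trizol, hybridised it to Affymetrix Human Gene 1.0 ST arrays and computed RMA signals in Affymetrix Expression Console, a summary that corrects background, quantile-normalises the arrays and thereby removes any overall difference between lines. The deposited values are linear intensities of 33297 probesets on 8 arrays, and log2 was taken here. An array has no read depth, and the precision is limited by the number of arrays, 4 per line. The median log2 signal of an array was 6.67 to 6.73. The annotation gave 1 gene for 19460 probesets, several for 1754 and none for 12083, and 19429 of the first were found in RefSeq (GRCh38.p14).

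As in the methods, probesets in the lowest 25% of mean signal in both lines (log2 5.11 and 5.16) were left out, which kept 25628. Each probeset was fitted with limma 3.58.1 in R 4.3.3 (lmFit, then eBayes), and p-values of all probesets kept were adjusted by Benjamini-Hochberg, in place of the methods' t-test, which was run as an alternative. The procedure was tested on simulated data. The replicate numbers were not used to pair the arrays. The deviations of same-numbered arrays correlated at r = 0.16, -0.32, -0.05 and 0.44. Those of differently numbered arrays of the other line ran from -0.47 to 0.38. These values show no steady pairing, but cannot tell whether equal numbers were handled together. Per-array values are given for called members, the drug exporters ABCB1, ABCC1 to ABCC5 and ABCG2, the sterol exporters ABCA1 and ABCG1, and the 8 members not called with the largest differences. Of each partner list, up to 4 called genes in each direction are named. Genes named beyond this rule, such as NPC2, NR1H3, NFYA, YBX1 and the extra array values of TAP1, B2M and ETS1, were chosen after their values were seen. The members and lists were chosen with earlier results of these data known, and no list was tested as a set. Alternatives were other filters, thresholds, tests, scalings, array weights, probeset means, a replicate block and leaving out arrays.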

Additional observations from a re-analysis of the deposited data

Results flagged for a closer look

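In 7 of the 86 groups of 4 arrays, which are the 43 ABC genes in each line, a single array lay so far from the other 3 that its gap exceeded Dixon's 95% critical value. Chance alone gives such a gap in about 1 in 20 groups. The log2 signals were as follows. ABCF3 gave 7.56 on Cisplatin-sensitive array 4, and the others of that line lay from 7.17 to 7.18. ABCC10 gave 7.24 on Cisplatin-sensitive array 2, and the others lay from 7.54 to 7.57. ABCC2 gave 7.040 on Cisplatin-resistant array 4, where the others were between 6.991 and 6.997, and 6.21 on Cisplatin-sensitive array 3, where the others were between 6.43 and 6.48. ABCD3 gave 9.49 on Cisplatin-sensitive array 3, beside 9.31 to 9.33 on the others. ABCA12 gave 4.86 on Cisplatin-sensitive array 2, beside 4.63 to 4.66, and ABCB5 gave 3.81 on Cisplatin-resistant array 2, beside 4.02 to 4.05. These last 2 genes were dim in both lines. No called member was among them.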

How the results depend on the processing

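Of 842 values of the 33 ABC genes under 26 alternatives, 819 kept their direction and their side of the call. The status at any size is not part of that count, and it changed for members near the threshold. The adjusted p of ABCC5 was 0.068 with the methods' t-test and 0.0668 with median centring. With resistant arrays 1 and 3 alone, it was 0.104 for ABCC3 and 0.0554 for ABCB6. In turn, ABCA4 passed at 0.0281 with quantile normalization again. ABCB1 stayed called under every alternative. The 4 calls were kept in each of the 8 fits that left out 1 array and with either pair of resistant arrays, an alternative chosen after seeing the data. At 1.5-fold, 6 members were called higher and 5 lower. At 3-fold none was called higher, although ABCA3, ABCB8 and ABCC1 kept their adjusted p. At an adjusted p under 0.01, 8 members were higher and 9 lower at any size. With treat, limma's test for more than 2-fold, 1 was called higher, ABCC1, while ABCA3 had an adjusted p of 0.238 and ABCB8 of 1. With the mean of all probesets ABCB8 gave 0.49 and was not called, because its probesets differ. Leaving out 1 array gave 1 to 2 members called lower, and the second was ABCD2 at -1.01 without Cisplatin-sensitive replicate 4. ABCD2 was dim in the resistant line and passed the filter only through the sensitive line, so nothing is drawn from that call. Leaving out 1 array gave 10 to 13 members higher at any size. With the replicate block, 3 members were called higher and 1 lower, and 13 and 9 at any size, which changed no call. The methods' t-test, after Benjamini-Hochberg adjustment, called 3 higher and 1 lower.

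A total of 9 values in 4 genes changed sign, all near 0 and none called, and the cause was not tested. ABCB4 was at -0.0018 without Cisplatin-resistant replicate 2 (0.126 at most with 1 array left out) and -0.0508 with resistant arrays 1 and 3 alone. ABCD3 was at 0.0453 under cyclic loess, 0.0036 without Cisplatin-sensitive replicate 3 (-0.0847 at the lowest) and 0.0137 with resistant arrays 1 and 3. ABCF2 was at 0.0053 under cyclic loess. ABCG8 was at -1e-04 without Cisplatin-sensitive replicate 1, -0.0271 without replicate 4 (0.194 at most) and -0.0382 with resistant arrays 2 and 4. Signal over background limits ABCA4 and ABCD2, which were dim in 1 line.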
